A study of Mus musculus with 66 samples.

Results

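Mouse gastrocnemius muscle regenerating from cardiotoxin, a membrane-active peptide of cobra venom that kills fibres and spares their stem cells, was compared between day 10 and day 4. The comparison used the 8 arrays labelled with these times, of 66 arrays in the series, which follows regeneration from hours to weeks after the injection. On the later version of an Affymetrix murine array, called Av2 in the labels, there were 2 arrays at each time, and on the earlier version, called A, also 2 at each time. The labels of the A arrays give 100 ul of 10 uM cardiotoxin, whereas those of the Av2 arrays at these times name the time and the muscle without a dose. The controls were untreated gastrocnemius muscle of mice 8 weeks old, with 2 arrays on each version. The sources used here do not give strain, genotype, sex or the age of the injected mice. The 4 d arrays shared 1 sample code number within a version, 2 on Av2 and 8 on A, while the 10 d arrays carried 1 and 2 on Av2 and 9 and 10 on A. Nothing in the labels says whether the arrays of a group hold RNA of different animals, and the p-values therefore measure only the spread between these samples, which may be technical. The versions were fitted separately and set side by side by direction of change, because they differ in design and in the scale the authors gave them.

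As background, cardiotoxin kills the fibres within a day, and neutrophils and then monocyte-derived macrophages clear the debris. Satellite cells, the muscle stem cells, divide, become myoblasts and fuse into new fibres whose nuclei lie at the centre. Those fibres first carry embryonic and neonatal forms of myosin, troponin and the acetylcholine receptor, and later replace them with adult forms, mitochondria and the calcium stores of the adult fibre. Around 4 d the tissue is still cellular and dividing, and around 10 d it holds young fibres.

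The files hold intensity on a linear scale, already brought to a common mean by the authors. The floors below which an intensity was not read were 64.7 on Av2 and 646.8 on A, so weak genes could be followed only on Av2, and levels are not comparable between versions. Lower values were raised to the floor, so where both arrays of a time lay below it the change is a lower bound, written as at least. Of the 5 muscle markers Acta1, Ckm, Myh4, Mylpf and Tnnt3, every one present on a version lay above its floor on all control, 4 d and 10 d arrays. Over the 5 defining macrophage markers the summed intensity on Av2 was 35510 and 39124 at 4 d, 16046 and 16789 at 10 d, and 3114 and 2134 in untreated muscle. The manufacturer's control probe sets gave a ratio of the 3 prime to the 5 prime end of beta-actin of 0.0452 and 0.0184 on the 4 d arrays of Av2, against 0.702 and 0.765 on the 10 d arrays. On A the same ratio was 1.00 and 0.838 at 4 d and 0.885 and 0.952 at 10 d, and the ratio for Gapdh lay between 0.574 and 0.931 on all 8 arrays. The low ratio thus stood on the 4 d arrays of Av2 and not on those of A. On Av2 the ratio was 0.969 and 0.989 at 3.5 d, 0.594 and 0.851 at 4.5 d, and 0.233 and 0.571 at 5 d. It was also low at 1 d (0.0695 and 0.0782), at 2 d (0.0562 and 0.0333) and on 12 h replicate 2 (0.0475). The part of the ratio in the Av2 results was not tested. The SD of the log2 difference between replicate arrays was 0.621 at 4 d and 0.510 at 10 d on Av2, and 0.254 and 0.266 on A.

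Between 4 d and 10 d, oxidative phosphorylation had the most calls of the lists on Av2, with 30 of 70 genes higher. Mitosis and macrophages followed, each with 21 of 39 lower, and then collagens and matrix, with 17 of 49 higher. On A the counts in this order were 2 of 59, 12 of 23, 7 of 36 and 17 of 40. Counts depend on list size: in smaller lists, 8 of 11 calcium handling and 11 of 19 glycolysis and glycogen genes were higher on Av2. On Av2, 1137 of the 11997 probe sets tested passed an adjusted p of 0.05 in limma, which is 9.48%, with 552 higher and 585 lower at 10 d. On A, 477 of 4742 passed, which is 10.1%, with 209 higher and 268 lower. Both versions called the same 250 probe sets in the same direction, 5.27% of the 4742 tested on both, with 118 higher and 132 lower, and 0 were called in opposite directions. Of the 807 probe sets called on Av2 and tested on A, 746 had the same sign on A, 4 had the opposite sign, and 57 stood at the floor of A at both times. Among the 3708 probe sets called on neither version, 64.9% shared the sign. Across the probe sets tested on both, Pearson's r between the log2 changes was 0.73, a description over genes, which are not independent replicates. Counted as genes, 446 of 8087 were higher on Av2 (5.52%) and 457 lower (5.65%). On A the counts were 172 of 3790 higher (4.54%) and 228 lower (6.02%), and on both versions 99 higher (2.61%) and 118 lower (3.11%). The list counts below stand beside these shares of all genes. These calls borrow the spread of all time points: a fit of the 4 Av2 arrays alone called 0 probe sets in limma, with a smallest adjusted p of 0.0654 and 2690 probe sets at an unadjusted p under 0.05, while the 4 A arrays alone called 838. In whole tissue, fewer cells of a type and less RNA per cell cannot be told apart, which applies to every gene below.

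**Figure D1:**
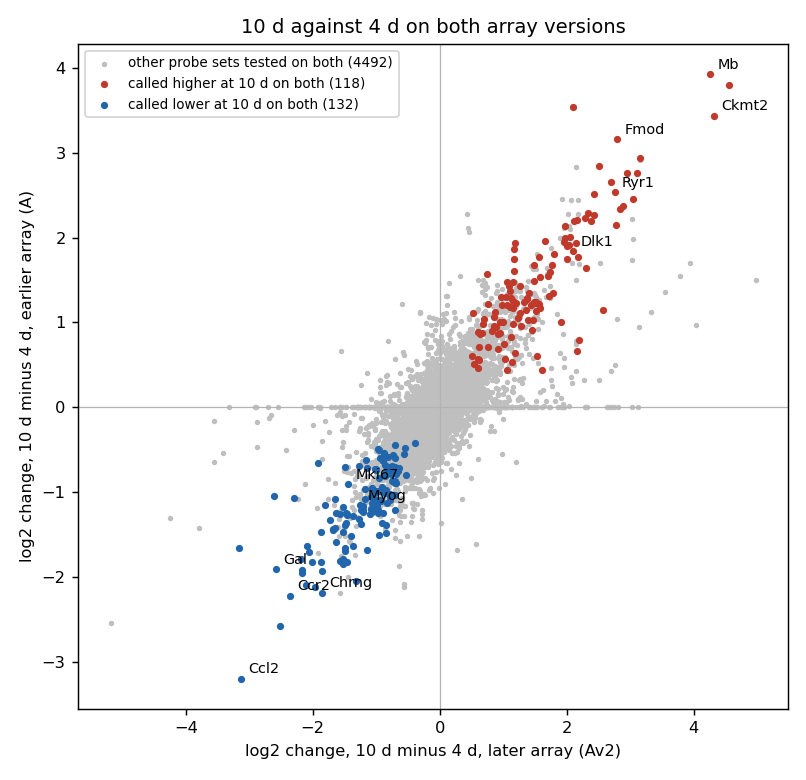
Each point is 1 of 4742 probe sets tested on both versions, with its log2 change from 4 d to 10 d on Av2 along the horizontal axis and on A along the vertical axis. The 118 red and 132 blue points are those called higher or lower on both, and the row of points at 0 on the vertical axis holds probe sets at the floor of A.

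Mb and Ckmt2 led the rises among genes that were called on both versions and did not overlap between the times, ranked by the smaller of the changes on the versions. Mb encodes myoglobin, the oxygen store of oxidative fibres. Its intensity on Av2 was 1087 and 536 at 4 d and 14035 and 15267 at 10 d, and on A it was 1059 and under the floor at 4 d and 14470 and 10905 at 10 d. The log2 change was 4.26 ± 0.36 (SE) on Av2 (adjusted p = 2.41e-09) and 3.92 ± 0.49 on A (adjusted p = 0.0028). That the 10 d arrays lay above the 4 d arrays was required by the rule, so it is no separate result for these genes. Ckmt2, the sarcomeric mitochondrial creatine kinase, read 949 and 345 at 4 d and 10536 and 12489 at 10 d on Av2. On A it read 1437 and under the floor at 4 d against 11201 and 9694 at 10 d. The log2 change of Ckmt2 was 4.33 ± 0.39 on Av2 (adjusted p = 6.5e-09) and 3.43 ± 0.43 on A (adjusted p = 0.0028). Untreated Av2 arrays averaged 20076 for Mb and 34654 for Ckmt2, so the 10 d level of Ckmt2 remained below untreated muscle by 1.59 on the log2 scale (adjusted p = 0.00244), and that of Mb differed by -0.41 (adjusted p = 0.495).

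The other 10 largest rises were Ndrg2, Fmod, Camk2b, Sypl2, Ak1, Ryr1, Cox6a2, Myoz1, Pdk4 and Amot, with log2 changes of 2.51 to 3.15 on Av2 and 2.34 to 3.16 on A. Camk2b, a subunit of the calcium and calmodulin dependent kinase, read 666 and 464 at 4 d and 4914 and 4701 at 10 d on Av2. Its 10 d arrays stood at the level of untreated muscle, whose mean was 4361 (log2 difference 0.14, adjusted p = 0.781). Pdk4, the kinase that shuts pyruvate out of oxidation, read 759 and 567 at 4 d and 3768 and 6299 at 10 d, still below the untreated mean of 11751. Sypl2, also called mitsugumin 29 and a protein of the triad membrane, read 835 and 688 at 4 d and 5745 and 5914 at 10 d. Camk2b lay below the floor on both 4 d arrays of A, where its rise was at least 6.78-fold (adjusted p = 0.00298). On Av2 all 12 rises, Mb and Ckmt2 included, stayed called when any 1 of the 4 arrays was left out. On A, Mb, Ckmt2, Fmod and Camk2b did so as well, Sypl2 and Ryr1 were called in 1 of the 4 reduced fits, Myoz1 and Pdk4 in 2 and Cox6a2 in 3, while Ndrg2, Ak1 and Amot were called in none of the 4 reduced fits, with adjusted p reaching 0.139, 0.258 and 0.14.

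**Figure D2:**
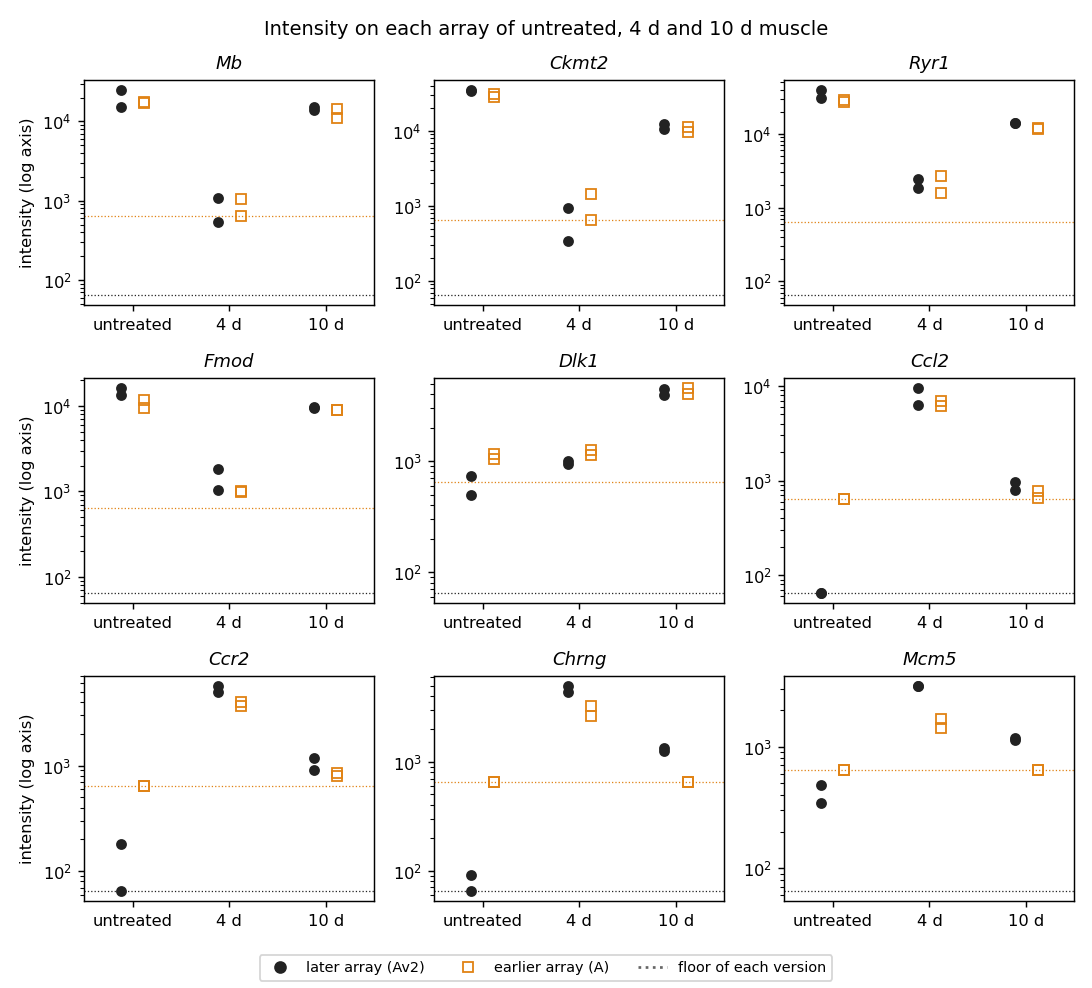
Intensity on a log axis of 9 genes on each array of untreated, 4 d and 10 d muscle, with filled circles for Av2, open squares for A and dotted lines for the floors, to which lower values are raised. Mb, Ckmt2, Ryr1 and Fmod dip at 4 d and are higher at 10 d, where Ckmt2 and Fmod remain below the untreated arrays on Av2. Mb at 10 d, at 14035 and 15267, also lies below the untreated 15280 and 24871 on Av2, a difference that did not pass. Dlk1 is highest at 10 d, and Ccl2, Ccr2, Chrng and Mcm5 peak at 4 d.

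The adult contractile genes rose in part. Of the 18 fast fibre genes tested on Av2 (25 listed), 7 rose and 0 fell, against 5.52% and 5.65% of all genes, and their median log2 change was 1.34 where that of all genes was -0.01. Without 4 d replicate 2 the median was 0.86. Myoz1, a Z-disc protein of fast fibres, read 3365 and 1371 at 4 d and 16250 and 19122 at 10 d, a change of 3.04 ± 0.41 (adjusted p = 9.21e-06). Ldb3, another Z-disc protein, was tested on Av2 alone and rose by 2.75 ± 0.52 (adjusted p = 0.000626). Myh1, a fast adult myosin heavy chain, read 5476 and 3995 at 4 d and 36568 and 40756 at 10 d on Av2 (3.05 ± 0.42, adjusted p = 9.21e-06). On A its rise of 1.98 ± 0.54 missed the threshold (adjusted p = 0.0579). Myh4, the fastest adult myosin, did not pass on either version, with 28219 and 14176 at 4 d and 15876 and 19367 at 10 d on Av2 (-0.19 ± 0.63, adjusted p = 0.964). Skeletal actin, Acta1, read 34065 and 27399 at 4 d and 16429 and 15042 at 10 d (-0.96 ± 1.36, adjusted p = 0.791). Myh2 lay below the floor on every 4 d and 10 d array. The myosin heavy chain genes are near copies of each other, so a split of signal between their probe sets is uncertain.

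On A, 2 of the 13 fast genes tested rose, against 4.54% of all genes, and both also rose on Av2, against 2.61%: Myoz1 and Tnni2, the fast troponin I. Myoz1 lost its call on A without 10 d replicate 1 and without 4 d replicate 2. Tnni2 lost its call on A when any 1 array was left out. Of 11 slow fibre genes tested on Av2 (12 listed), 4 rose and 0 fell, with 6 higher and 5 lower by value, and Mb and Csrp3, a muscle LIM protein, rose on both versions, though the A call of Csrp3 held in 1 of 4 fits leaving an array out. Myl2, the slow and cardiac regulatory light chain, lay below the floor on both 4 d arrays of Av2 and read 1787 and 2345 at 10 d, at least 31.9-fold higher (log2 4.98 ± 0.79, adjusted p = 6.72e-05). Its untreated mean was 13934, and at 10 d it was lower than untreated by 2.75 on the log2 scale (adjusted p = 0.0106). Myl3, the slow essential light chain, read under the floor and 155 at 4 d and 767 and 874 at 10 d on Av2 (3.03 ± 0.86, adjusted p = 0.0208), a call that held in 1 of the 4 fits leaving an array out. Myh7, the slow myosin heavy chain, read 233 and 91.0 at 4 d and 881 and 936 at 10 d without passing (2.64 ± 0.93, adjusted p = 0.0721).

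Calcium handling and excitation genes had the highest median of the 37 lists, 1.87 on Av2 and 1.96 on A. Without 4 d replicate 2 of Av2 the median there was 1.49. Of 11 tested on Av2, 8 rose and 0 fell, and of 9 tested on A, 3 rose, the same 3 as on Av2. Ryr1, the calcium release channel of the sarcoplasmic reticulum, read 2422 and 1827 at 4 d and 14171 and 14254 at 10 d on Av2, and 2689 and 1576 against 12127 and 11757 on A. The change was 2.76 ± 0.35 on Av2 (adjusted p = 4.31e-06) and 2.54 ± 0.45 on A (adjusted p = 0.0117). Fxyd1, phospholemman, which tunes the sodium pump, rose by 2.29 ± 0.32 and 2.23 ± 0.35. Kcna7, a voltage-gated potassium channel, lay below the floor at 4 d and read 358 and 490 at 10 d on Av2, and it stood at the floor of A at both times. On Av2, 5 to 7 genes were called higher with an array left out, and the A calls of this list fell to 0 without 10 d replicate 1 or without 4 d replicate 2.

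Of 19 glycolysis and glycogen genes tested, 11 rose and 0 fell on Av2, with a median of 1.48, and 7 to 10 were called higher with an array left out. Slc2a4, the insulin-responsive glucose carrier, read 350 and 70.0 at 4 d and 1783 and 1884 at 10 d (3.55 ± 0.54, adjusted p = 4.09e-05). Pygm, muscle glycogen phosphorylase, read 4456 and 1585 at 4 d and 22930 and 26850 at 10 d (3.22 ± 0.45, adjusted p = 1.38e-05), and Phkg1, the catalytic subunit of phosphorylase kinase, rose by 3.32 ± 0.41. On A, 2 of 16 rose, Pfkm and Gpd1, and 0 did without 10 d replicate 1, without 10 d replicate 2 or without 4 d replicate 2. Of 9 creatine and adenylate genes, 4 rose and 2 fell. Ckm, the cytosolic muscle creatine kinase, rose by 3.03 ± 0.37 (adjusted p = 2.07e-06), and Ckb, the brain form, fell by 0.77 ± 0.24 on Av2 (adjusted p = 0.0402) while its A change was -0.55 ± 0.26 (adjusted p = 0.232). The Av2 call of Ckb was lost when any 1 array was left out (adjusted p up to 0.28). Gatm, which makes the precursor of creatine, fell on both versions, by 1.07 ± 0.29 and 1.13 ± 0.16, with the Av2 call kept in 1 of 4 reduced fits.

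Of 70 oxidative phosphorylation and citric acid cycle genes tested on Av2, 30 rose and 1 fell, with a median of 0.84. The subunit that fell is the liver form of a pair. Cox6a1, the form of cytochrome c oxidase subunit 6a outside muscle, read 15294 and 17322 at 4 d and 8739 and 9092 at 10 d on Av2, and it fell by 0.87 ± 0.16 on Av2 (adjusted p = 0.00044) and 0.68 ± 0.11 on A (adjusted p = 0.00808), where the call was lost without 10 d replicate 1 and without 4 d replicate 2. Its muscle counterpart Cox6a2 read 6332 and 2620 at 4 d and 21204 and 25395 at 10 d, and it rose by 2.51 ± 0.36 and 2.84 ± 0.47 (adjusted p = 2.18e-05 and 0.00841). Cox7a1, the muscle form of another subunit, lay below the floor at 4 d and read 1061 and 1056 at 10 d on Av2, at least 16.4-fold higher. On A, 2 of 59 rose and 1 fell, against 4.54% and 6.02% of all genes, with a median of 0.94. The medians of the versions were thus alike where the counts were not. With any 1 of the 4 Av2 arrays left out, 10 to 13 genes were called higher. Of 23 fatty acid genes, 5 rose and 0 fell on Av2, 2 to 4 with an array left out, and 0 of 18 passed in limma on A, with 3 at an unadjusted p under 0.05. Fabp3, the muscle fatty acid binding protein, read 354 and 237 at 4 d and 2183 and 2554 at 10 d (3.03 ± 0.49, adjusted p = 8.81e-05). At 10 d, 36 of the 70 oxidative genes and 18 of the 23 fatty acid genes were still below untreated muscle.

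**Figure D3:**
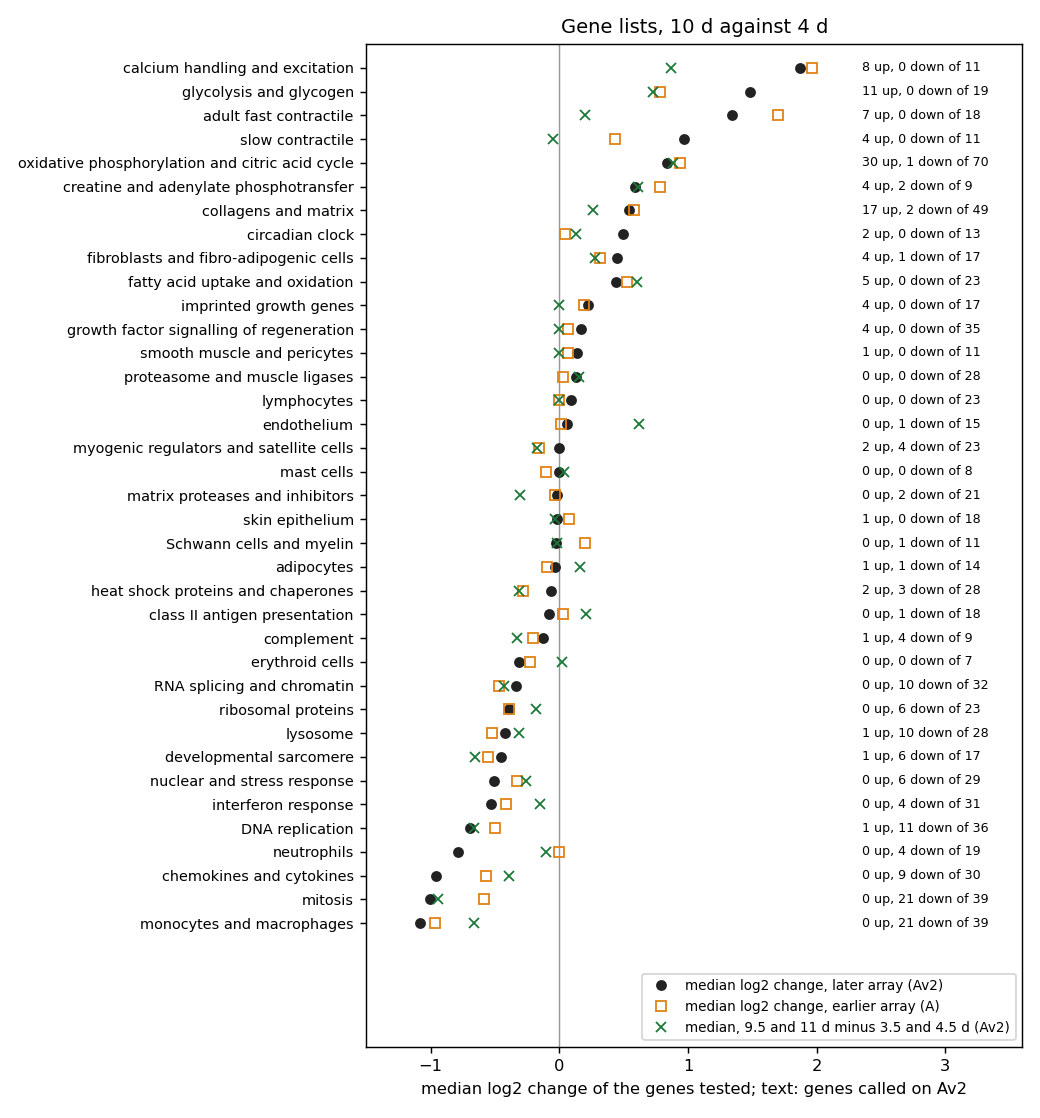
Median log2 change of the genes tested in each of 37 lists, as circles for Av2, squares for A and crosses for the neighbouring times on Av2, with the count of genes called on Av2 at the right. Calcium handling, glycolysis and fast contractile genes have the highest circles, at 1.87, 1.48 and 1.34, and macrophage and mitosis genes the lowest, at -1.09 and -1.01.

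Of 17 genes of embryonic muscle and myoblasts tested on Av2, 6 fell and 1 rose, against 5.65% and 5.52% of all genes, and 5 fell on both versions, against 3.11%: Chrng, Chrna1, Tnnt2, Cdh15 and Cdh2. Chrng, the fetal gamma subunit of the muscle acetylcholine receptor, read 4963 and 4382 at 4 d and 1331 and 1244 at 10 d on Av2. On A it read 3277 and 2635 at 4 d and was below the floor at 10 d. It fell by 1.86 ± 0.50 on Av2 (adjusted p = 0.0155) and by at least 4.57-fold on A (adjusted p = 0.000166), and the Av2 call was lost when any 1 of the 4 arrays was left out (adjusted p up to 0.101). Cdh15, M-cadherin of satellite cells and myoblasts, fell by 1.58 ± 0.46 on Av2 and at least 2.39-fold on A, with the same loss on Av2. With an Av2 array left out, 0 to 2 genes of the list were called lower on Av2, the fewest without 10 d replicate 2, and with an A array left out, 4 to 5 were lower on both versions.

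The gene of that list that rose was Myh8, the neonatal heavy chain, which went from 688 and 654 to 2655 and 2295 on Av2 (1.88 ± 0.28, adjusted p = 3e-05). Myh3, the embryonic heavy chain, read 6070 and 5853 at 4 d and 5554 and 3514 at 10 d, without passing (-0.43 ± 0.39, adjusted p = 0.616), beside a list median of -0.45, and its untreated mean was 163. Neither is tested on A. Of 23 myogenic regulators and satellite cell genes tested on Av2, 4 fell and 2 rose, and 1 to 2 were called lower with an array left out. Myog, the regulator of myoblast differentiation, read 4983 and 6174 at 4 d and 2085 and 2593 at 10 d on Av2 and fell on both versions, by 1.25 ± 0.35 (adjusted p = 0.0178) and 1.15 ± 0.18 (adjusted p = 0.00683). The Av2 call held in 1 of 4 fits leaving an array out, and the A call in 2 of 4. Myod1, the regulator of myoblast commitment, fell by 0.90 ± 0.21 on Av2 (adjusted p = 0.00396) and changed by -1.04 ± 0.28 on A (adjusted p = 0.0579). Myf6, the regulator found in mature fibres, went the other way, from 821 and 443 to 1780 and 2331 on Av2 (1.76 ± 0.38, adjusted p = 0.00239), with 1.88 ± 0.53 on A (adjusted p = 0.0624). The Av2 calls of Myod1 and Myf6 were kept in 3 of 4 reduced fits. Myf5, of quiescent and activated satellite cells, did not pass, with 120 and 190 at 4 d and 169 and 168 at 10 d.

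Of 39 mitosis genes tested on Av2, 21 fell and 0 rose with a median of -1.01, and of 23 tested on A, 12 fell and 0 rose, against 6.02% of all genes lower. Both versions shared 7 falls: Mki67, Ccnb2, Cdc20, Birc5, Stmn1, Hmgb2 and Anln. Of 36 DNA replication genes, 11 fell and 1 rose on Av2, and of 13 on A, 7 fell. With an array left out, 7 to 9 were called lower on Av2 and 3 to 7 on A, with 3 on A without 10 d replicate 1 or 4 d replicate 2. Mcm5, part of the replicative helicase, read 3164 and 3163 at 4 d and 1177 and 1127 at 10 d on Av2, a fall of 1.46 ± 0.23 (adjusted p = 7.81e-05), and on A it was at least 2.41-fold lower (adjusted p = 0.00293). Rrm2, the regulatory subunit of ribonucleotide reductase, read 1414 and 1692 at 4 d and 438 and 449 at 10 d (-1.80 ± 0.30, adjusted p = 0.000123). Mki67, the proliferation antigen, read 723 and 1235 at 4 d and 418 and 290 at 10 d, and fell by 1.44 ± 0.32 on Av2 (adjusted p = 0.00295) and at least 1.88-fold on A (adjusted p = 0.00417), the Av2 call being kept in 2 of 4 reduced fits. Cdk1, the mitotic kinase, was at least 2.16-fold lower on A (adjusted p = 0.0067) and did not pass on Av2 (-0.97 ± 0.57, adjusted p = 0.348). The replication gene that rose, Pola2, a subunit of DNA polymerase alpha, read 589 and 122 at 4 d and 1071 and 1020 at 10 d, and kept its call in 1 of 4 fits. At 10 d, 25 of the 39 mitosis genes were called above untreated muscle on Av2, beside 1624 of all 11997 probe sets. With any 1 Av2 array left out, 9 to 16 mitosis genes were called lower, the fewest without 4 d replicate 2, and 4 to 8 were lower on both versions with an A array left out.

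Promoters of division genes are shown because mitotic genes are known to share a CCAAT box, bound by the factor NF-Y, and a cell cycle homology region, TTTGAA, bound by the complexes that repress or activate late cell cycle genes. The windows, from RefSeq on GRCm38.p6, run from 250 bases before to 50 bases after the first listed start of the gene. Hmgb2 and Birc5 had the largest falls on Av2 among the mitosis genes called on both versions, Mki67, Ccnb2 and Cdc20 were added after the motif search because they hold both motifs, and Pfkm, the muscle phosphofructokinase, stands for the glycolytic genes that rose on both. Each is written 5′ to 3′ along the gene. Capitals mark a match to either motif, or to the myogenic E-box core CAGCTG, searched on both strands, so a CCAAT box on the opposite strand appears as ATTGG.
Hmgb2, chr8:57511593-57511892, plus strand: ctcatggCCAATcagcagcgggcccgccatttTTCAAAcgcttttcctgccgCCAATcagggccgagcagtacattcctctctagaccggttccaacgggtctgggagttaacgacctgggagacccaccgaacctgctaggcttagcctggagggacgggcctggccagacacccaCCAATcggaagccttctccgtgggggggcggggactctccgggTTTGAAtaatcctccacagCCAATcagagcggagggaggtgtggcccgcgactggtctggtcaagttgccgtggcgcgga
Mki67, chr7:135716330-135716629, minus strand: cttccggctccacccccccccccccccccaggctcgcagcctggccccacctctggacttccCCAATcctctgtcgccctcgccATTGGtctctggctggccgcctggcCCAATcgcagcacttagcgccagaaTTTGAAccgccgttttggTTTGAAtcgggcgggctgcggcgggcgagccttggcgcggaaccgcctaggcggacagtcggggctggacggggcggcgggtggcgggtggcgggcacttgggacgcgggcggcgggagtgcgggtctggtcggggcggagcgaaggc
Ccnb2, chr9:70421505-70421804, minus strand: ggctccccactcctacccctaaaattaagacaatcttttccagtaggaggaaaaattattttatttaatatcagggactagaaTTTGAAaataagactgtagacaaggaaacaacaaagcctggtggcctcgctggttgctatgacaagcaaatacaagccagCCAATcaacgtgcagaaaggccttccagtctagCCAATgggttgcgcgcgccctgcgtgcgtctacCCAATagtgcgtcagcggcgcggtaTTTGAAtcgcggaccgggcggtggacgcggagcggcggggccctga
Cdc20, chr4:118437294-118437593, minus strand: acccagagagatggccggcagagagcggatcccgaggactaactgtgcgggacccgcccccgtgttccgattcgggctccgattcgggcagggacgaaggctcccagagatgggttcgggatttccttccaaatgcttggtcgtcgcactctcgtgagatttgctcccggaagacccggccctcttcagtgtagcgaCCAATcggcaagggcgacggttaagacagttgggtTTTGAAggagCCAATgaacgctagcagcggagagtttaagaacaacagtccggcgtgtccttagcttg
Birc5, chr11:117848987-117849286, plus strand: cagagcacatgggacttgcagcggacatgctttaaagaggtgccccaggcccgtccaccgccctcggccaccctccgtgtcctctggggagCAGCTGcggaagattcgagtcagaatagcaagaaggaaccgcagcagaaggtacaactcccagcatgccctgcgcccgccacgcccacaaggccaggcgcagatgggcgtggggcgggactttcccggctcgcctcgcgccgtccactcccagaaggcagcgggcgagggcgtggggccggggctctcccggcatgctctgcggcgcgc
Pfkm, chr15:98092339-98092638, plus strand: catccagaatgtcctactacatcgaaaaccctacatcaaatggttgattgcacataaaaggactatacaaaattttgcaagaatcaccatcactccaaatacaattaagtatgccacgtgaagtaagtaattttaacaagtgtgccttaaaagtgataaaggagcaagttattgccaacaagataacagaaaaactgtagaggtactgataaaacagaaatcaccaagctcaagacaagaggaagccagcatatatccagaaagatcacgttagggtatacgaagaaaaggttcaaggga
Hmgb2, a chromatin protein abundant in dividing cells, held 4 CCAAT and 2 TTTGAA matches in its window, and its intensity on Av2 was 336 and 322 at 4 d and 123 and 89.0 at 10 d. It fell by 1.65 ± 0.36 on Av2 (adjusted p = 0.00271) and at least 2.12-fold on A (adjusted p = 0.00213). Ccnb2, cyclin B2, held 3 CCAAT and 2 TTTGAA matches and fell by 1.18 ± 0.25 and 1.08 ± 0.19. Cdc20, an activator of the anaphase-promoting complex, held 2 and 1 and fell by 0.92 ± 0.23 and 1.36 ± 0.15. Birc5, survivin, held neither in its window and fell by 1.5 ± 0.36 on Av2 and at least 1.64-fold on A. Only the window of the first listed start was searched, so this does not show that the gene lacks the motifs. In fits leaving an array out, the Av2 calls were kept in 3 of 4 for Hmgb2, 4 for Ccnb2, 2 for Cdc20 and 2 for Birc5, and the A calls in 4, 1, 4 and 1. Over the mitosis genes with a window, 25 of 31 held CCAAT (80.6%) and 23 held TTTGAA (74.2%), and 21 held both (67.7%). Among the 6453 tested genes with a window, the shares were 38.3%, 12.8% and 5.42%, and among all 27025 windows the corresponding shares were 37.9%, 18.1% and 7.12%. Of the 97 genes lower on both versions with a window, 25.8% held TTTGAA, and of the 76 higher on both, 5.26% did. CCAAT stood in 38.1% of the former and 34.2% of the latter, beside 38.3% of the tested genes. CAGCTG stood in 8 of 17 glycolysis windows, 5 of 9 calcium handling windows and 4 of 12 fast contractile windows. It stood in 14.6% of the tested genes, 13.2% of the genes higher on both versions and 16.5% of those lower on both. A match is a run of letters and was not tested as a binding site.

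Of 39 macrophage genes tested on Av2, 21 fell and 0 rose with a median of -1.09, and of 36 on A, 7 fell and 1 rose. The 7 fell on both versions, and with any 1 A array left out 3 to 4 were called lower on A and on both. Ccl2, the chief attractant of monocytes, led the genes that fell on both, ranked by the smaller of the changes on the versions. It read 6227 and 9518 at 4 d and 791 and 968 at 10 d on Av2, and 6190 and 6926 against 658 and 777 on A, with untreated Av2 arrays below the floor. It fell by 3.14 ± 0.33 on Av2 (adjusted p = 1.72e-07) and 3.19 ± 0.26 on A (adjusted p = 0.000437). Its receptor Ccr2, carried by inflammatory monocytes, read 5013 and 5682 at 4 d and 910 and 1179 at 10 d, a fall of 2.37 ± 0.38 on Av2 (adjusted p = 8.22e-05) and 2.22 ± 0.28 on A (adjusted p = 0.00281). Ccl7, a related attractant, fell by 2.51 ± 0.38 on Av2 and at least 5.98-fold on A. Ligand and receptor were lower on every 10 d array than on every 4 d array of both versions. The rule that chose these genes required this, so it is no separate result.

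The other large falls on both versions were Il4ra, Cfp, Lst1, Ms4a6c, Gal, Chrng, Mrc1, Dab2 and Fcgr2b, at -1.85 to -2.57 on Av2. Mrc1, the mannose receptor of tissue macrophages, read 3130 and 3985 at 4 d and 1150 and 829 at 10 d on Av2. Il4ra, the receptor chain for interleukins 4 and 13, read 3346 and 2878 at 4 d and 814 and 645 at 10 d. Cfp, properdin, which stabilises the alternative complement convertase, fell by 1.96 ± 0.30 and 2.12 ± 0.49, and on A its call, like that of the Fc receptor gene Fcgr2b, was lost when any 1 array was left out (adjusted p up to 0.162 and 0.141). Gal, the neuropeptide galanin, read 4700 and 5390 at 4 d and 837 and 853 at 10 d, a fall of 2.57 ± 0.20 (adjusted p = 4.61e-10). Arg1, arginase of alternatively activated macrophages, showed the largest fall of the macrophage list on Av2, from 3489 and 3062 to below the floor and 125 (-5.18 ± 0.80, adjusted p = 4.57e-05). On A it read 3877 and 3626 at 4 d and was below the floor at 10 d, at least 5.80-fold lower, though this missed the threshold (adjusted p = 0.0781). The 1 macrophage gene that rose on A was Mmp12, macrophage elastase, by 1.5 ± 0.18 (adjusted p = 0.00271). On Av2 its change was 0.69 ± 0.40 (adjusted p = 0.343). Macrophage genes remained above untreated muscle at 10 d in 32 of 39 cases, and with 1 of the Av2 arrays left out, 8 to 10 genes were called lower.

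Of 30 chemokine and cytokine genes tested on Av2, 9 fell and 0 rose, and 4 of 20 fell on both versions, while 7 fell on A and 3 to 4 did with an A array left out. Il1b, interleukin 1 beta, read 1067 and 687 at 4 d and 91.7 and 149 at 10 d (-2.87 ± 0.74, adjusted p = 0.0112), a call kept in 2 of 4 fits. Of 19 neutrophil genes, 4 fell on Av2, 1 without 10 d replicate 1. S100a8, a calcium-binding protein stored in neutrophils, read 2089 and 1276 at 4 d and 135 and 246 at 10 d on Av2 and fell on both versions, by 3.16 ± 0.81 on Av2 (adjusted p = 0.00996) and at least 3.26-fold on A (adjusted p = 0.0222), calls kept in 2 of 4 and 1 of 4 fits leaving an array out. Of 28 lysosome genes, 10 fell and 1 rose on Av2, with 5 to 8 lower when an array was left out. Ctsc, cathepsin C, fell on both versions, by 1.49 ± 0.28 and 1.69 ± 0.37, whereas Ctsk, cathepsin K, the collagen-degrading member, rose by 1.44 ± 0.30 on Av2 (adjusted p = 0.00155). Of 9 complement genes, 4 fell and 1 rose on Av2, with 2 to 3 lower when an array was left out. C1qb, a chain of the classical pathway's first component, read 17464 and 17315 at 4 d and 8224 and 8560 at 10 d (-1.05 ± 0.23, adjusted p = 0.00259). Of 31 interferon response genes, 4 fell on Av2, 0 to 2 with an array left out, and of 18 class II antigen presentation genes 1 fell, Ifi30, a lysosomal reductase, by 1.53 ± 0.32 and 1.85 ± 0.34. On A the calls of Ctsc and Ifi30 were lost when any 1 array was left out (adjusted p up to 0.159 and 0.0913). Beside the Av2 counts of these lists, 5.65% of all genes tested fell. Of 23 lymphocyte genes, 0 passed in limma on Av2 and 0 of 3 on A, with 1 and 0 at an unadjusted p under 0.05 and a median change of 0.09 on Av2. Median scaling, or leaving out 10 d replicate 2, called 1 lymphocyte gene higher on Av2.

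Of 49 collagen and matrix genes tested on Av2, 17 rose and 2 fell, and of 40 on A, 17 rose and 1 fell, with 13 shared rises and 1 shared fall. Fmod, fibromodulin, a collagen-binding proteoglycan of tendon and connective tissue, read 1040 and 1853 at 4 d and 9460 and 9764 at 10 d on Av2, and 986 and 1017 against 9064 and 8859 on A. It rose by 2.79 ± 0.21 on Av2 (adjusted p = 2.25e-10) and 3.16 ± 0.21 on A (adjusted p = 0.000206). Lum, lumican, its relative, read 2185 and 2248 at 4 d and 8376 and 8906 at 10 d, a rise of 1.96 ± 0.23 (adjusted p = 1.18e-06) and on A of 1.94 ± 0.25 (adjusted p = 0.00326). The microfibril gene Mfap4 rose on Av2 by 2.05 ± 0.47 (adjusted p = 0.00383). All 3 chains of collagen VI, the pericellular collagen of muscle, rose on both versions, Col6a1 by 1.11 ± 0.18 and 1.18 ± 0.18, Col6a2 by 1.38 ± 0.34 and 1.28 ± 0.33, and Col6a3 by 1.20 ± 0.17 and 1.23 ± 0.22. With an A array left out, the A call was kept in 2 of 4 fits for Col6a1 and in 0 for Col6a2 and Col6a3 (adjusted p up to 0.227 and 0.0804). The shared fall was Ccn2, the connective tissue growth factor, which read 3225 and 3874 at 4 d 658 and 1969 at 10 d (-1.63 ± 0.36, adjusted p = 0.0031). On A it changed by -1.59 ± 0.41 (adjusted p = 0.0498), a call kept in 1 of 4 reduced fits. At 10 d, 38 of the 49 were above untreated muscle and 1 was below. With 1 array of a version left out, 12 to 15 were called higher on Av2 and 9 to 12 on A.

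Of 17 genes of fibroblasts and fibro-adipogenic cells, 4 rose and 1 fell on Av2, and the same 4 rose on A. On Av2, 1 to 4 were called higher with an array left out, the fewest without 10 d replicate 2. Dlk1, an imprinted transmembrane relative of the Notch ligands, read 953 and 996 at 4 d and 3909 and 4482 at 10 d on Av2, and 1266 and 1145 against 4570 and 4050 on A. It rose by 2.10 ± 0.22 (adjusted p = 1.79e-07) and 1.84 ± 0.27 (adjusted p = 0.00577), and at 10 d it was above the untreated mean of 612. Dpt, dermatopontin, and Clec3b, tetranectin, rose by 1.74 ± 0.39 and 1.92 ± 0.41 on Av2. On A, Dpt rose by 1.60 ± 0.15 and Clec3b at least 2.00-fold. Of 17 imprinted growth genes, 4 rose and 0 fell on Av2, and 5 of 11 rose on A, a count of 1 without 4 d replicate 2 and of 3 to 4 without any other 1 array. Meg3, a noncoding RNA of the same cluster as Dlk1, read 163 and 1532 at 4 d, arrays that differ widely, and 6467 and 5713 at 10 d (3.6 ± 0.62, adjusted p = 0.000195). Plagl1, an imprinted zinc finger factor, read 181 and 193 at 4 d and 886 and 789 at 10 d, and rose on both versions, by 2.16 ± 0.33 on Av2 and at least 1.61-fold on A. Igf2, the imprinted growth factor, was high at both times and did not pass, with 14222 and 12909 at 4 d and 16020 and 14635 at 10 d (0.18 ± 0.20, adjusted p = 0.712), above an untreated mean of 3466. Mstn, myostatin, the inhibitor of muscle growth, was low at both times (357 and 140, then 402 and 334) against an untreated mean of 1880. Of 35 growth factor genes, 4 rose and 0 fell on Av2, 0 to 3 with an array left out, and 0 of 18 passed in limma on A, with 3 at an unadjusted p under 0.05.

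Of 29 nuclear and stress response genes, 6 fell and 0 rose on Av2. Mt1, a metallothionein that binds zinc and copper, read 15125 and 11910 at 4 d and 3028 and 3294 at 10 d, a fall of 2.09 ± 0.20 (adjusted p = 3.01e-08) and on A of 1.63 ± 0.38 (adjusted p = 0.0332), a call lost when any 1 A array was left out (adjusted p up to 0.159). Hmox1, heme oxygenase, read 13478 and 15293 at 4 d and 4525 and 5385 at 10 d (-1.54 ± 0.29, adjusted p = 0.000662). Of 28 heat shock genes, 3 fell and 2 rose on Av2, with 1 to 2 lower when an array was left out. Hsp90aa1, an inducible chaperone, fell on both versions, by 1.64 ± 0.24 (adjusted p = 2.82e-05) and 1.25 ± 0.15 (adjusted p = 0.00247), whereas Smyd1, a methyltransferase of the sarcomere, and Hspb8, a small heat shock protein, rose on Av2 by 1.48 ± 0.41 and 0.88 ± 0.21, calls kept in 1 and 2 of 4 reduced fits. Of 32 splicing and chromatin genes, 10 fell and 0 rose on Av2 (6 to 8 with an array left out), with Hnrnpd, an RNA-binding protein, falling by 1.03 ± 0.21 and 1.11 ± 0.13 on the versions. Of 23 ribosomal protein genes, 6 fell on Av2, but 1 was called lower under median scaling and 0 to 1 with an array left out. Of 28 proteasome and muscle ligase genes, 0 passed in limma on Av2 and 0 of 25 on A, with 2 at an unadjusted p under 0.05 on each. Of 13 circadian clock genes, 2 rose on Av2. Tef, a factor of clock output, read 631 and 912 at 4 d and 3000 and 3920 at 10 d (2.18 ± 0.43, adjusted p = 0.000928), and the repressor gene Nr1d2 rose by 1.55 ± 0.21. The hours at which tissue was taken were not stated in the sources at hand.

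On Av2, 1 of 15 endothelial genes fell, 1 of 11 Schwann cell genes fell, 1 of 11 smooth muscle and pericyte genes rose, and 1 rose and 1 fell of 14 adipocyte genes. Over all genes tested on Av2, 5.52% rose and 5.65% fell, so these counts show nothing particular to the lists. The smooth muscle call was lost when any 1 array was left out. Of 7 erythroid and 8 mast cell genes, 0 passed in limma on Av2, and 0 were at an unadjusted p under 0.05. The summed intensity of 3 defining endothelial markers on Av2 was 2686 and 2671 at 4 d and 3445 and 3041 at 10 d. For 3 skin markers it was 461 and 287 at 4 d and 323 and 1025 at 10 d, so 10 d replicate 2 stood apart, and on A 10 d replicate 1 read 1569 against 105 to 208 on the other 3. Sprr1a, a cornified envelope precursor and the 1 skin gene called, read 105 and 74.7 at 4 d and 427 and 439 at 10 d, and lost its call in each fit leaving an array out. Erbb3, the neuregulin receptor of Schwann cells, fell on both versions, by 0.95 ± 0.25 and 0.99 ± 0.10, and its Av2 call held in 1 of 4 fits leaving an array out (adjusted p up to 0.122). The part of these cells in the muscle results was not tested.

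Some large changes were measurable only on Av2. Among rises, Kcne1l, a potassium channel subunit gene, lay below the floor on both 4 d arrays and read 632 and 530 at 10 d, at least 8.98-fold higher. Matn4, matrilin 4 of cartilage and connective tissue, read 161 and 235 at 4 d and 1240 and 1312 at 10 d. Among falls, Bcl3, a nuclear partner of NF-kappa-B, read 1241 and 1633 at 4 d and 146 and 145 at 10 d, a fall of 3.29 ± 0.57 (adjusted p = 0.000198) to the level of untreated muscle, whose mean was 136. Lcn2, lipocalin 2, read 589 and 374 at 4 d and 76.3 and 50.7 at 10 d. Ms4a6b, a membrane gene of immune cells, Il10ra, the interleukin 10 receptor chain, Fxyd2, a sodium pump subunit, and Nup188, a nuclear pore protein, fell by 2.38 to 2.63.

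The probe sets that changed were set beside untreated muscle on Av2. Of the 552 probe sets higher at 10 d, 436 were below untreated muscle at 4 d, and 223 were still below it at 10 d while 93 were above. Of the 585 lower at 10 d, 531 were above untreated muscle at 4 d, and 278 were still above it at 10 d while 26 were below. In all, 2770 of 11997 probe sets differed from untreated muscle at 10 d, which is 23.1%, with 1624 higher (58.6%) and 1146 lower. The list counts against untreated muscle given above stand beside these. Under median scaling the share higher was 46.2%, so the balance of directions against untreated muscle depends on scaling. These counts reuse the 4 d and 10 d arrays that chose the probe sets, so they describe the levels and are no test of a direction towards the untreated level.

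The 4 d and 10 d arrays of Av2 were set against the times on either side, 3.5 and 4.5 d and 9.5 and 11 d. The beta-actin ratio was low on the 4 d arrays and not on the arrays of these neighbouring times. Its part in the departures was not tested. The 4 d arrays departed from their neighbours in 813 probe sets (6.78% of those tested), 350 of them higher. The 10 d arrays did so in 51 (0.425%), 17 of them higher. Both departed in 29 probe sets, all in the same direction, and r between the departures over probe sets was 0.31, a description. Departures that are alike at both times cancel in the difference of the times, while a departure at 4 d alone stays in it. The step from 3.5 and 4.5 d to 9.5 and 11 d called 1644 probe sets, and 657 were called in the same direction in both steps, which is 57.8% of the 1137 calls of 10 d against 4 d, out of 1644 of the neighbours. Of the 1137 calls, 1046 had the same sign in the neighbours' step. The same-sign share over all probe sets was not counted here, so this count has no base rate beside it. Over all probe sets tested, r between the steps was 0.57, a description.

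The difference between the steps was tested in the same fit and called 19 of 11997 probe sets, 0.158%, with 12 above and 7 below the neighbours' step and 970 at an unadjusted p under 0.05. The count ran from 6 without 10 d replicate 1 to 115 without 4 d replicate 2. Mb read 3081 and 2652 at 3.5 d, 1087 and 536 at 4 d, and 5067 and 6784 at 4.5 d, so that its 4 d level lay below both sides, and its step exceeded that of the neighbours by 2.63 (adjusted p = 0.00501). Ckmt2 differed by 2.52 (adjusted p = 0.012). C1qtnf3, a secreted relative of C1q, read 4479 and 3065 at 3.5 d, 1484 and 1524 at 4 d and 4983 and 4904 at 4.5 d, against 4928 and 3732 at 10 d. Its rise of 1.51 ± 0.34 thus had no counterpart in the neighbours' step, which was -0.51 (difference adjusted p = 0.0258). On A, where no neighbouring time was arrayed, C1qtnf3 also rose, by 1.23 ± 0.14 (adjusted p = 0.00229). Cpxm2, a carboxypeptidase-like gene, and Fhl1, a muscle LIM protein, differed by 1.97 and 1.95 and also rose on A, where the call of Fhl1 held in 1 of 4 fits leaving an array out (adjusted p up to 0.109). Below the neighbours stood Ednrb, the endothelin B receptor, at -2.59, Nipsnap1, a mitochondrial protein, at -1.29, and Atp7a, a copper-transporting ATPase, at -0.92. Nipsnap1 read 131 and 190 at 4 d and lay below the floor at 10 d, at every neighbouring time and in untreated muscle. Among these arrays it passed the filter only through the group where it was high, so its call gives no support. Ednrb read 499 and 383 at 4 d and lay below the floor on both arrays at 4.5, 9.5 and 11 d. The sizes of both differences thus depend on the floor.

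**Figure D4:**
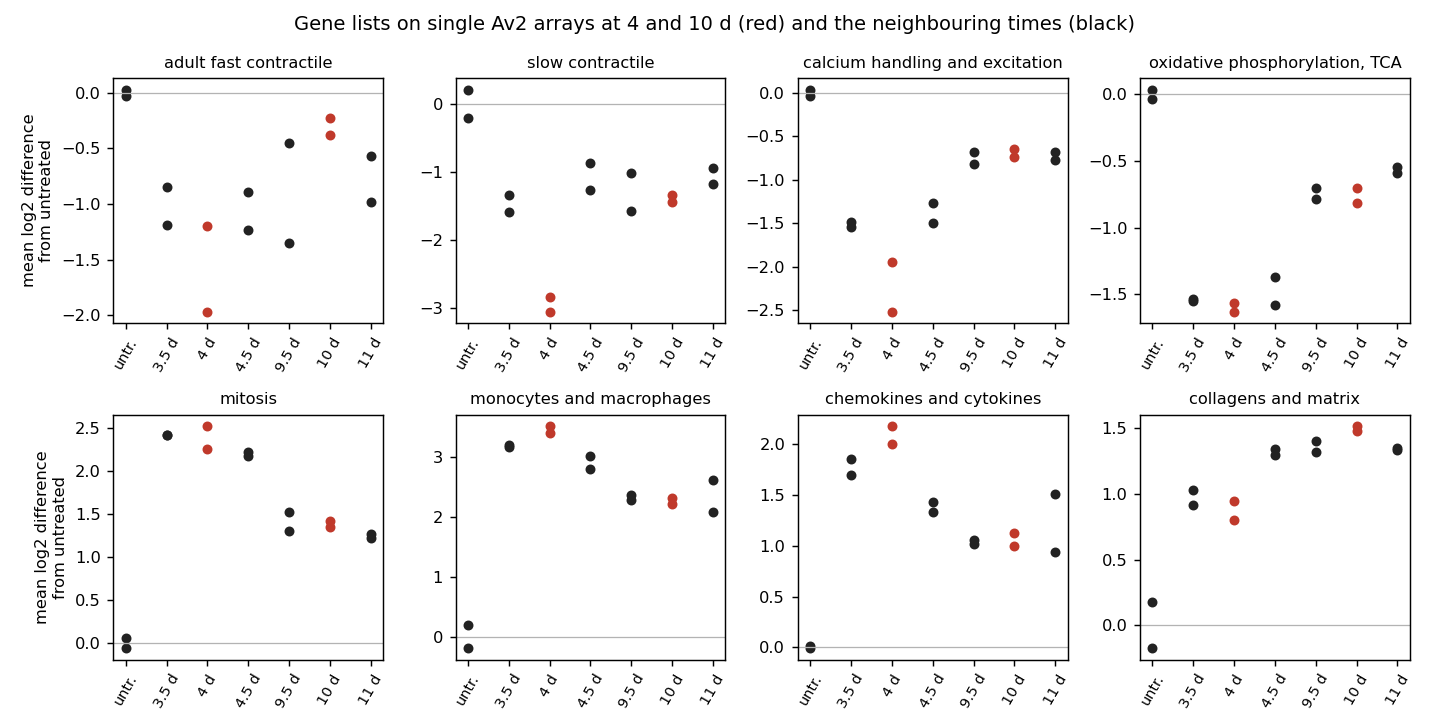
Mean log2 intensity of 8 gene lists on single Av2 arrays, minus the mean of the untreated arrays, with 4 d and 10 d in red and the neighbouring times in black. Slow contractile genes are lowest on the 4 d arrays, while the division, macrophage and oxidative lists differ between the early and the late times on either side.

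The lists differed in how much of their step the neighbours showed. The median for oxidative phosphorylation was 0.84 between 4 d and 10 d and 0.89 between the neighbours, and that for mitosis was -1.01 and -0.94. For calcium handling genes the medians were 1.87 and 0.87, and for glycolysis and glycogen genes 1.48 and 0.72. For fast contractile genes the medians were 1.34 and 0.20, and for slow contractile genes 0.97 and -0.05. Among the late neighbours, the ratio for Gapdh was 0.0439 on 9.5 d replicate 2 and 0.0496 on 11 d replicate 1, against 0.686 and 0.609 on their partners. The mean log2 intensity of the fast genes was 11.61 and 11.98 on those arrays and 12.51 and 12.39 on the partners, and the part of the ratio was not tested. Over the slow genes the mean log2 intensity was 10.05 and 9.84 at 4 d, 11.55 and 11.30 at 3.5 d, 11.62 and 12.02 at 4.5 d, and 11.56 and 11.46 at 10 d. Myl2 read 1224 and 1308 at 3.5 d and 1268 and 2780 at 4.5 d, whereas both 4 d arrays lay below the floor. In the test of the difference, 1 of the slow genes passed, Mb, and 0 of the fast genes did in limma. On A, Myl2 was likewise below the floor on both 4 d arrays, and the median of the slow list was 0.43.

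The versions were compared directly by testing whether the step on Av2 differed from that on A. Of 4742 probe sets, 82 differed, which is 1.73%, with 42 above and 40 below. The count ran from 18 to 185 when 1 of the 8 arrays was left out, the fewest without 4 d replicate 2 of A and the most without 4 d replicate 2 of Av2. For Myl2, Cox7a1, Kcna7, Phkg1, Il1b, Arg1 and Ednrb, at least 1 time lay below the floor on both arrays of A, so the step on A is only a bound and no difference between the versions can be read from these calls. S100a9, the partner of S100a8, was above the floor on all 4 arrays of A, where it read 1761 and 1061 at 4 d and 744 and 1027 at 10 d. On Av2 it read 1075 and 823 at 4 d and 48.6, under the floor, and 98.8 at 10 d, a fall of 3.56 ± 0.81 (adjusted p = 0.00381), and the steps differed by -2.91 (adjusted p = 0.0334).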

How the data were processed

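The authors deposited 1 intensity per probe set and array, on a linear scale as read from the values. The sources used here name neither software nor background correction nor unit. The trimmed mean of each array lay within 0.0108% of 800.5 on Av2 and 0.337% of 600.3 on A, and 16.0% of the A values were below 0. Of 12488 Av2 and 12654 A probe sets, 9977 were shared, and 2611 A probe sets at 0 on every array were left out. Log2 was taken after lower values were set to a floor, and probe sets above it on at least 2 arrays were tested. The Av2 floor was the median over arrays of the 0.2 quantile, and the A floor 2 times the median over arrays of the root mean square of values below 0. limma 3.58.1 in R 4.3.3 fitted 1 mean per group over all 54 Av2 and 12 A arrays (27 and 6 residual degrees of freedom), and p-values were adjusted by Benjamini-Hochberg over all probe sets tested. Of the Av2 probe sets, 10833 had 1 gene symbol in the platform annotation, 396 several and 1193 none, and 1 probe set stood for each gene. The fit was checked on simulated data.

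Genes and the 37 lists (1068 entries, 856 on Av2) were chosen with earlier results of these data known. Named were the 12 largest rises and falls called on both versions without overlap, up to 3 members per list, 6 per direction tested on Av2 alone, 5 per direction differing from the neighbouring times, and 16 muscle and growth genes. Further members called on both versions, with Ckb and Mmp12, were chosen after their values were seen. Alternatives covered scaling, floor, filter, moderation, the 4 arrays alone, a required fold, code letters as a block and each array left out. Plots used matplotlib 3.10.9. The number of arrays limits the precision.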

Additional observations from a re-analysis of the deposited data

Results flagged for a closer look

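With values raised to the floor of each version, the test in limma of the Av2 step against the A step passed for 11 of the named genes. The Av2 log2 change minus the A log2 change was 3.48 for Myl2 (adjusted p = 0.00277), 3.06 for Cox7a1 (adjusted p = 0.0098), 3.03 for Myl3 (adjusted p = 0.0436), 2.70 for Kcna7 (adjusted p = 0.00277), 2.20 for Phkg1 (adjusted p = 0.00518) and 1.49 for Plagl1 (adjusted p = 0.0288). It was -2.91 for S100a9 (adjusted p = 0.0334), -2.69 for Il1b (adjusted p = 0.0329), -2.65 for Arg1 (adjusted p = 0.0305), -2.56 for Ednrb (adjusted p = 0.0036) and -1.57 for Chil3 (adjusted p = 0.0234). Other than S100a9, each lay below the floor of A on both arrays of at least 1 time, so its A change is only a bound and these values and p-values show no difference between the versions.

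On Av2 the step also differed from the step of the neighbouring times for 10 named genes. The difference in log2 change was 2.63 for Mb (adjusted p = 0.00501), 2.52 for Ckmt2 (adjusted p = 0.012), 2.02 for C1qtnf3 (adjusted p = 0.0258), 1.97 for Cpxm2 (adjusted p = 0.0486), 1.95 for Fhl1 (adjusted p = 0.038), 1.56 for Camk2b (adjusted p = 0.012) and 1.54 for Fmod (adjusted p = 0.00501). It was -2.59 for Ednrb (adjusted p = 0.00501), -1.29 for Nipsnap1 (adjusted p = 0.00329) and -0.92 for Atp7a (adjusted p = 0.0444). Ednrb lay below the floor on both arrays at 4.5, 9.5 and 11 d, and Nipsnap1 at 10 d and every neighbouring time. Both sizes depend on the floor, and the Nipsnap1 call gives no support, because of these arrays only those of 4 d passed the floor. The low beta-actin ratio of the 4 d arrays of Av2, which the neighbouring times did not share, stands beside these differences, and its part was not tested.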

How the results depend on the processing

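Fitted on the arrays of 4 d and 10 d alone, the calls numbered 0 on Av2, 838 on A and 0 on both versions. Requiring a change beyond 2-fold gave 64, 11 and 5. With no filter on dim probe sets, A had 223, both versions 116 and the difference between versions 251. That difference had 20 calls at 0.5 times the floor, 224 at 2 times the floor, 43 with at least 4 arrays above the floor and 53 with trend and robust moderation, and the difference from the neighbouring times had 35 at 2 times the floor. One fit of the 8 arrays with version as a block called 1752. With 1 array left out, the calls ran from 581 to 770 on Av2, 150 to 264 on A, 91 to 182 on both versions, 6 to 115 for the difference from the neighbouring times, 18 to 185 for that between versions and 1843 to 2187 against untreated muscle. With the code letters as a replicate block they were 1136, 356 and 195, and the codes are not stated to pair samples. Between the neighbouring times the log2 change had the opposite sign for Bmpr1a (-0.14), Sprr1a (-0.54), C1qtnf3 (-0.51), Atp7a (0.025) and Myf5 (-0.80), and Myh3 passed (-1.11). Of 27 lists with a median beyond 0.1, 0 changed sign under quantile normalization or median scaling, 4 between the neighbouring times and 1 with an array left out. The causes were not tested. The leave-outs on A for lists and named genes, and those of list members, were added after seeing the data. The floor of A limits what weak genes show.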
